A study of Mus musculus with 2 samples.

Results

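The clusters described here are stretches of RNA bound by UPF1 deep inside protein-coding genes, 20000 to 100000 nt upstream of the annotated 3′ end. A cluster was taken when it lay in exactly 1 annotated locus of the RefSeq annotation of GRCm38, when that locus was protein-coding and shorter than 500000 nt, when both were on the same strand, and when the midpoint of the cluster fell in that window. The rule uses position and no measured value. It took 28012 of the 123349 deposited clusters, in 3929 genes. They are called internal clusters below. The distance is genomic and includes introns, so "internal" describes the place in the locus and not the place in a spliced mRNA.

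The data come from enhanced crosslinking and immunoprecipitation (eCLIP), which recovers the RNA fragments crosslinked to a protein and compares them with an input library. Neural progenitor cells from mouse cortex were used, with the genotype Upf2fl/fl, that is with a loxP-flanked Upf2 allele in both the immunoprecipitate and the input. Both carry the word MOCK in their labels, with no explanation of it. With 1 library immunoprecipitated by an antibody against UPF1 and 1 input library, no value below has a replicate error and no test between conditions was possible.

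UPF1 is an RNA helicase required for nonsense-mediated decay, the pathway that removes mRNAs on which translation ends early. It binds RNA with little sequence preference, is displaced from coding sequence by ribosomes and collects on 3′ untranslated regions. Many genes have more than 1 polyadenylation site, and a site in an intron or an alternative last exon ends the mRNA far upstream of the outer end of the locus, often with a changed carboxy terminus of the protein. A dense row of bound clusters inside a locus is therefore described here as a candidate internal 3′ end. The annotation table used here holds no exons or transcript ends, so none of these candidates was compared with an annotated transcript end.

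For each cluster the authors deposited a log2 fold of immunoprecipitate over input and a −log10 p of that fold. Read counts behind them were reconstructed from the steps in both columns, and each fold below has a 95% interval computed from them by the exact Clopper-Pearson method. Intervals cover counting error only. The word enriched is kept for clusters whose log2 fold and −log10 p both reach 3. Internal clusters had a median log2 fold of 0.56 (quartiles -0.29 and 0.98) and a median width of 66 nt. A fold of 0.56, which 3 reads in the immunoprecipitate and 1 in the input give, was found in 6250 of them (22.3%), while 9875 (35.3%) had a fold at or below 0. Read counts could be reconstructed for 18131 internal clusters, not for those with a fold at or below 0. The counted ones held a median of 5 immunoprecipitate reads. Of the progenitor markers Sox2, Nes, Pax6, Slc1a3, Fabp7, Vim, Sox9, Hes1, Hes5 and Notch1, 9 of 10 had a cluster in a locus of their own, all but Sox2. So had 4 of 6 neuronal, 3 of 4 astrocyte, 2 of 5 oligodendrocyte, 1 of 5 vessel and 0 of 5 microglial markers.

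Sequences could be shown where an internal cluster meets a RefSeq promoter window, which reaches from 250 nt before to 50 nt after a start site. Of all clusters 11.6% were enriched, and of the internal ones 188. Enriched internal clusters met such a window in 8 cases, in 7 genes: Satb1, Ilrun, Ptp4a2, Ago1, Wbp1l, Dzip1 and Ttyh3, named for this overlap. The windows of Satb1 and Ilrun, the 2 highest folds, and of Ttyh3, which has a run, are shown because the enriched cluster begins just after the start site. They are RefSeq sequence of GRCm38.p6, written 5′ to 3′ on the strand of the gene, with the bases covered by the cluster in capitals.
Satb1: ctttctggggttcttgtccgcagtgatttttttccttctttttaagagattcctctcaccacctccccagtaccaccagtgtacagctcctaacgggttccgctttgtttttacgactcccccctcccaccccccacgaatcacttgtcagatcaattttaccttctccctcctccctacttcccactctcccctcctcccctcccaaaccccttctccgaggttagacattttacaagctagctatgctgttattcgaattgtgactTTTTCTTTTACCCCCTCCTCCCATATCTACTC
Ilrun: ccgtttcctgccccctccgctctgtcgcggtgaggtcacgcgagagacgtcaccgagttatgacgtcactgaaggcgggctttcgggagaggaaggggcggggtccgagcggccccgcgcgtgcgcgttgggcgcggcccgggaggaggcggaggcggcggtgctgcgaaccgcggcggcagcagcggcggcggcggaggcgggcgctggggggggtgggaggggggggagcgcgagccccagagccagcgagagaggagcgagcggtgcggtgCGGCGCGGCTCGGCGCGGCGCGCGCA
Ttyh3: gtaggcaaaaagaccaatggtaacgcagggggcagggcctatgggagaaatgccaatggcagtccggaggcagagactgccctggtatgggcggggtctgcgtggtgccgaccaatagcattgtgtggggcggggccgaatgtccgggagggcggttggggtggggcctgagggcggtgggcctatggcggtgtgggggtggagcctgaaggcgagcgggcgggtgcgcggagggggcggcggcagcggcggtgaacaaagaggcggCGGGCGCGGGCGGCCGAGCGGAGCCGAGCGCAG
The Satb1 window lies at chr17:51812005-51812304, that of Ilrun at chr17:27820493-27820792 and that of Ttyh3 at chr5:140648982-140649281, all on the minus strand. The cluster covered the last 32, 26 and 33 bases of these windows. Satb1, a chromatin organiser, had a fold of 4.40 from 43 reads against 1, Ilrun 3.88 from 30 against 1 and Ttyh3 3.15 from 199 against 11. The start in Satb1 is one inside the locus, 75801.5 nt from the 3′ end at the cluster. Upstream of its window, at 51812398 to 51812800, lay 3 neighbouring clusters with folds up to 2.03, none enriched. G and C made up 49% of the Satb1 window, 77.7% of that of Ilrun, 70.7% of that of Ttyh3 and 81.7% of that of Ptp4a2. The Ago1 window had 75.7%, that of Wbp1l 60% and those of Dzip1 57.7% and 69%. The median of the 32851 windows in the annotation was 52.7%. Only the Satb1 window thus lay below that median, and the others ranged from 57.7% to 81.7%.

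The strand of the clusters could be compared with the annotation where RefSeq gives it. In the 20000 to 100000 nt window of such loci, 22314 clusters lay on the strand of the gene and 17 on the other. No enriched cluster was among the 17, so that a share of at most 17.6% remains possible. Nearly all clusters in the window were thus on the sense strand. The cluster caller and its filters are not named, so how far the calling itself set this cannot be told here.

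Few internal clusters were enriched. The call was made on 11.6% of all 123349 clusters but on 188 internal clusters, 0.671% (Wilson 95% interval 0.582 to 0.774), in 83 of the 3929 genes. These Wilson intervals treat clusters as independent, which neighbours in a gene are not, and are likely too narrow. Within 5000 nt of the 3′ end, 34.7% of clusters in the same kind of locus were enriched. The share was 7.91% between 5000 and 10000 nt and 1.67% between 10000 and 20000 nt. Inside the window it was 0.932% (0.792 to 1.10) from 20000 to 50000 nt and 0.350% (0.261 to 0.470) from 50000 nt on. Beyond 100000 nt it was 0.431% (0.343 to 0.542). Internal clusters thus lay far below the 3′-end share, and the outer part of the window lay in the range found beyond it.

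**Figure D1:**
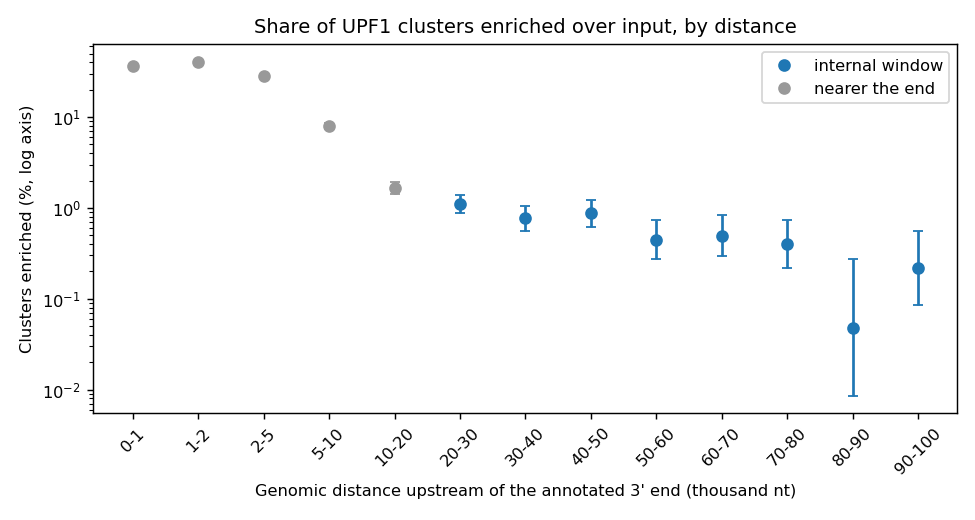
Share of clusters enriched over input (per cent, log axis) by distance upstream of the annotated 3′ end, in protein-coding loci shorter than 500000 nt; points are shares, bars Wilson 95% intervals, grey points lie nearer the 3′ end than the internal window and blue points lie in it. The share is 40.7% at 1000 to 2000 nt, 1.10% at 20000 to 30000 nt and 0.218% at 90000 to 100000 nt.

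Read depth moved with this gradient. Among clusters with a fold above 0, the only ones with a count, the median was 18 immunoprecipitate reads within 5000 nt of the 3′ end, 6 between 5000 and 10000 nt and 5 in the internal window. Of clusters with at least 24 reads or a −log10 p at the cap of 400, 84.7% were enriched within 5000 nt of the 3′ end. That share was 66.4% between 5000 and 10000 nt, 34.4% between 10000 and 20000 nt, 22.6% in the internal window and 13.7% beyond 100000 nt. What part depth has in the gradient was not tested. In the 188 enriched internal clusters the median depth was 42.5 reads (quartiles 32 and 64.25) against 2 in the input, and in the other internal clusters with a count it was 5 against 1. The shallowest enriched one held 24 reads. Their folds started at 3.01 and had a median of 3.73. They were also wider, with a median of 98 nt against 66 nt.

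The edges of the window cut through ordinary clusters. The cluster just inside 20000 nt lay in Tbce at a log2 fold of 0.56, and the one just outside in Rptor at -0.02. The nearest enriched ones were in Rell1 at 20011.5 nt (3.68) and in Disp3 at 19969.5 nt (3.56). At the far edge Stag2 stood at 0.30 just inside 100000 nt and Setbp1 at 0.98 just outside.

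Enriched internal clusters were grouped. Of the 188, 94 had another enriched internal cluster of the same gene within 100 nt and 130 (69.1%) within 1000 nt. 45 of the 83 genes had a single one, 17 had 2, and 13 genes with 5 or more held 84 of the 188 (44.7%). A run was defined as at least 3 internal clusters of 1 gene with gaps of at most 100 nt. There were 176 runs in 156 genes. They held 598 internal clusters, 2.13% of all, and 64 of the 188 enriched ones (34.0%). Of the runs, 150 had no enriched cluster, 10 had 1, and 16, in 16 genes, had 2 or more and are called enriched runs. The 16 enriched runs had a median span of 413.5 nt and held 76 clusters.

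**Figure D2:**
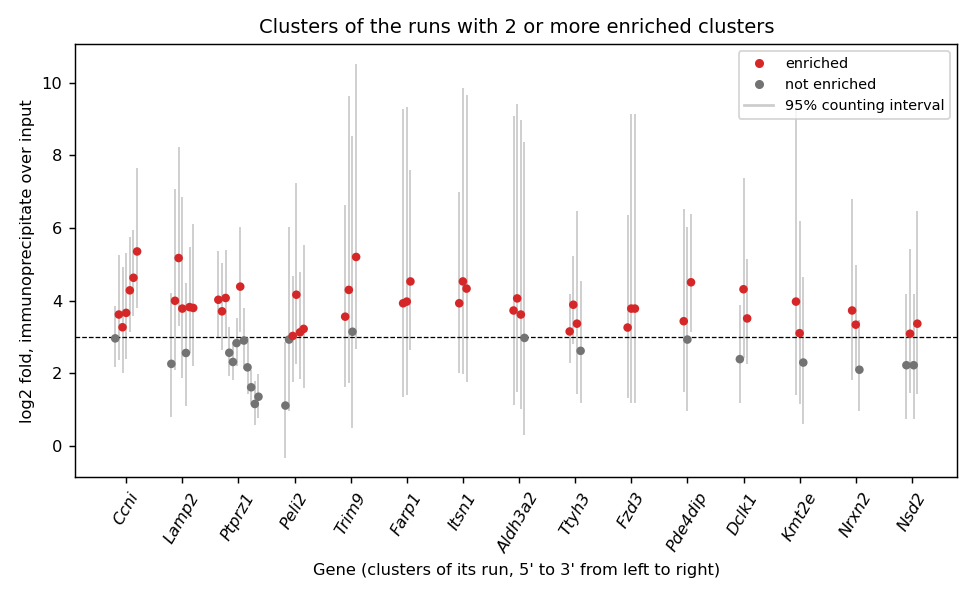
Log2 fold of immunoprecipitate over input for each cluster of the enriched runs of the genes described below, in order 5′ to 3′ within each gene; red points are enriched, grey points are not, grey lines are 95% counting intervals and the dashed line is the fold threshold of 3. Ptprz1 has the most clusters, 12, of which 4 are enriched, while all 3 of Itsn1 and all 3 of Farp1 are.

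In 6 of the 16 genes the last 5000 nt before the annotated 3′ end held no cluster on that strand, whichever locus it was assigned to. Among these were Lamp2, Peli2, Aldh3a2, Fzd3 and Pde4dip. An end that is not used and an end with too few reads cannot be told apart here. Clusters outside the run were counted in the 5000 nt past each of its edges, leaving out the 2 runs at a 5′ end. Of 14 runs, 5 had fewer downstream than upstream, 8 had more and 1 had as many. Of the 120 comparable runs with at most 1 enriched cluster, 39 had fewer, 51 more and 30 as many. By this count a drop in cluster number was not general. The downstream count takes in clusters that a gap over 100 nt parts from the run, such as 3 enriched ones in Lamp2. With the run itself counted as upstream, 13 of the 14 and 101 of the 120 had more reads upstream, a comparison that the run's own reads favour.

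Lamp2 encodes a membrane glycoprotein of the lysosome, known for splice forms with different last exons (chromosome X, 38399647 to 38456460, GRCm38, minus strand). A run of 7 clusters spanned 872 nt from 38420782 to 38421653, of which 5 were enriched. From 5′ to 3′ the folds were 2.26, 3.998, 5.18, 3.78, 2.56, 3.82 and 3.80. The highest came from 147 reads against 2 (interval 3.30 to 8.23). A further 3 enriched clusters lay just downstream, and all 8 enriched clusters of the gene stood 20381.5 to 21831.5 nt from its end. Nearer the end than these, Lamp2 had no enriched cluster. Its 2 most downstream ones, 5696.5 and 5539.5 nt from the end, had folds of 3.15, from 18 reads and short of the p threshold, and 1.56.

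**Figure D3:**
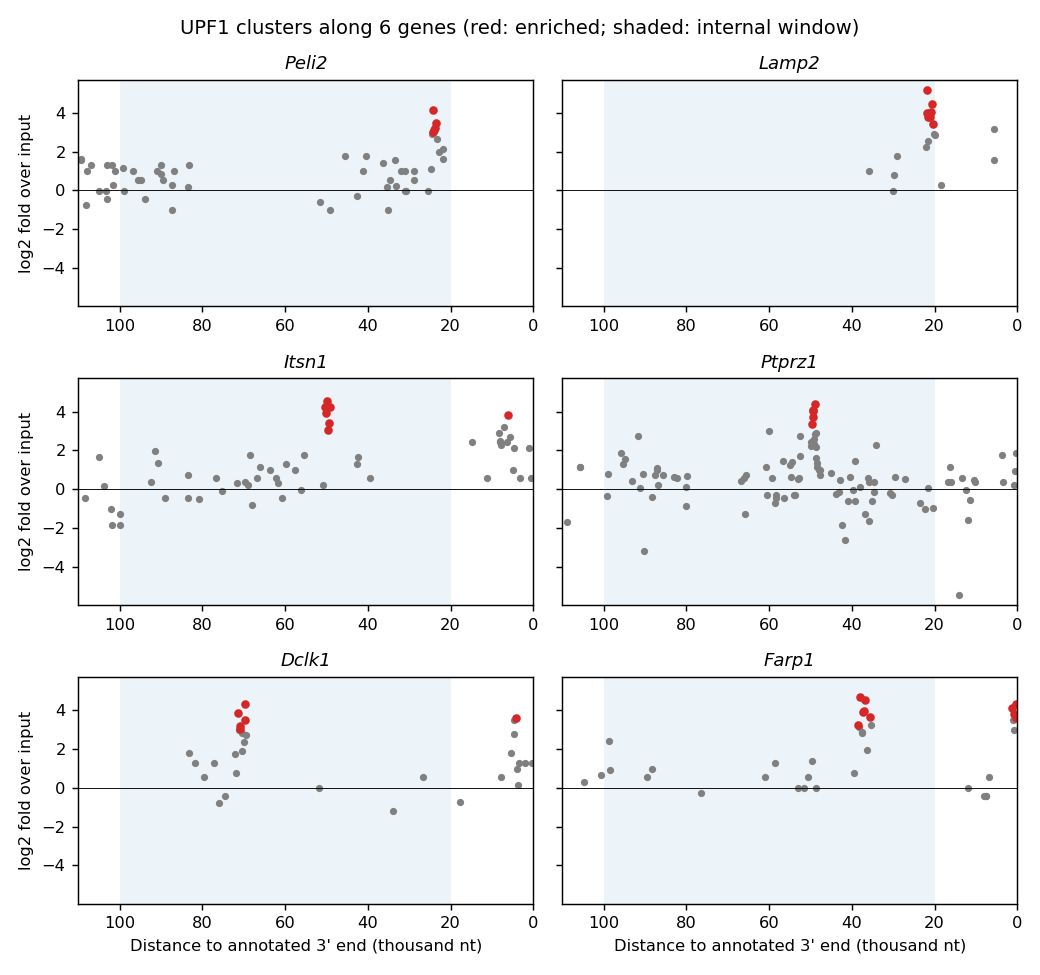
Log2 fold over input of the clusters assigned to 6 genes, as far from the end as the axis reaches, against the distance to the annotated 3′ end in kb, with the 3′ end at the right; red points are enriched, grey points are not, and the shaded band is the 20000 to 100000 nt window. Peli2 has no point nearer the end than 21739.5 nt, while Farp1 has enriched clusters both in the window and at its annotated end.

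Pde4dip encodes myomegalin, a scaffold of the centrosome and Golgi apparatus (chromosome 3, 97689828 to 97888707, minus strand). Its run of 3 clusters held 2 enriched ones, with folds of 3.44, 2.93 and 4.51 from 5′ to 3′ and 260 reads against 8. Just downstream stood a cluster with a fold of 5.22 (interval 2.70 to 10.55) from 76 reads against 1, and all 5 enriched clusters of the gene lay 50166.5 to 51177.5 nt from the end. No cluster assigned to the gene lay nearer the end. All 10 clusters of Pde4dip were internal ones.

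Peli2, a Pellino ubiquitin ligase of Toll-like receptor signalling, had a run of 6 clusters spanning 876 nt on chromosome 14 from 48256909 to 48257784, plus strand. The folds were 1.11, 2.93, 3.03, 4.17, 3.13 and 3.22, with 4 of them enriched. The highest rested on 73 reads against 2 (interval 2.26 to 7.24). The enriched clusters of the gene ended 23532.5 nt before the annotated end and its last cluster lay at 21739.5 nt. Aldh3a2, the fatty aldehyde dehydrogenase of the endoplasmic reticulum, had a run of 4 with 3 enriched on chromosome 11 from 61245019 to 61245465, minus strand. Its folds were 3.73, 4.06, 3.62 and 2.98 from 5′ to 3′, each from 16 to 34 reads against 1. No cluster of the gene lay downstream of this run, and the next cluster on that strand stood 70595.5 nt further on.

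Fzd3, a Frizzled receptor of Wnt signalling, differed from these. Its run of 3 enriched clusters (3.26, 3.78 and 3.78) lay 9523 nt from the 5′ end of the locus at its 3′ edge. In all, 11 clusters of the gene were enriched, and 8 of them lay downstream of this run. Of these 8, 3 lay between 43360 and 47450.5 nt from the annotated end. The rest of the 8 lay past the internal window, nearer the end, and the last was 8785 nt from it. The run in Fzd3 was therefore one of several bound stretches and not the last of them.

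In 3 genes the annotated end had clusters but none enriched: Itsn1, Ptprz1 and Kmt2e. Itsn1 encodes intersectin, an endocytic scaffold with a short form and a long form that carries an additional exchange-factor module (chromosome 16, 91729310 to 91920591, plus strand). Its run of 3 clusters, 91870415 to 91870747, had folds of 3.93, 4.53 and 4.33 from 62 against 2, 47 against 1 and 41 against 1 reads. In all, 7 enriched clusters lay 49146 to 50355.5 nt from the end. The 5 clusters within 5000 nt of the annotated end reached 2.15, with 28 reads in those that have a count, and 1 enriched cluster stood 6033.5 nt from it.

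Ptprz1 encodes a receptor tyrosine phosphatase of radial glia and oligodendrocyte precursors, and a secreted form known as phosphacan (chromosome 6, 22875315 to 23052916, plus strand). It had the longest run, 12 clusters over 1237 nt from 23003375 to 23004611, and the deepest, with 2755 reads against 242. From 5′ to 3′ the folds were 4.03, 3.71, 4.08, 2.57, 2.31, 2.83, 4.39, 2.90, 2.16, 1.62, 1.16 and 1.36. The highest rested on 213 reads against 5 (interval 3.14 to 6.03) and the lowest on 136 against 30 (0.58 to 1.78), so that the fold differed along the run by more than counting error. Another enriched cluster lay just upstream, with a fold of 3.38. The 5 clusters at the annotated end reached 1.84, with 130 reads in those that have a count, and no cluster downstream of the run was enriched. Kmt2e, a chromatin reader of the MLL family, had a short run of 3 clusters over 116 nt with folds of 3.98, 3.11 and 2.30, 41104 nt from the end, and the 8 clusters at its end, where the locus Srpk2 also lies, reached 1.56.

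In 5 genes with a run in the body of the locus the annotated end was enriched too. Trim9, a brain ubiquitin ligase of axon guidance, had folds of 3.56, 4.30, 3.15 (short of the p threshold) and 5.20 in its run (chromosome 12, 70267417 to 70267951, minus strand), and 1 of 6 clusters at its end was enriched, at 3.01. Dclk1, a doublecortin-like kinase known for short forms without the kinase domain, had folds of 2.39, 4.32 and 3.51 on chromosome 3 from 55469115 to 55469518, plus strand. An annotated start lies 7790 nt upstream of the end of this run. Of its 8 terminal clusters 1 was enriched, at 3.62, and the run held 261 reads against 94 reconstructed at the end. Nsd2, a histone H3 lysine methyltransferase with known shorter forms, had a run with folds of 2.22, 3.09, 2.22 and 3.37. Its 7 enriched internal clusters, from 26244 to 24233.5 nt, reached 4.91 upstream of that run, and 1 of 7 terminal clusters was enriched, at 3.56, above the run itself. The locus Nelfa also lies at that end. Farp1, an exchange factor for small GTPases, had folds of 3.93, 3.98 and 4.53 in its run, and 4 of its 6 terminal clusters were enriched, the highest at 4.33. The highest fold of the run was thus above that of the annotated end in Trim9, Dclk1 and Farp1 and below it in Nsd2, with no test of these differences.

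Nrxn2, a presynaptic adhesion molecule, had the strongest annotated end of the 5. Its run of 3 clusters had folds of 3.73, 3.34 and 2.10, 34763 nt from the end, from 218 reads. The annotated end had 13 clusters, 10 of them enriched, with a highest fold of 6.76 and 2899 reads in those that have a count. Most reads of the 2 stretches thus came from the annotated end.

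The last 2 enriched runs lay at the 5′ end of the locus and are not described as candidate 3′ ends. Ccni, cyclin I, is a locus of 24563 nt on chromosome 5, short enough for its 5′ end to fall in the window. Its run of 7 clusters from 93205993 to 93206356 ended 502 nt from the start of the locus and held 1415 reads against 45. From 5′ to 3′ the folds were 2.96, 3.62, 3.27, 3.67, 4.29, 4.63 and 5.36, the last from 250 reads against 3 (interval 3.79 to 7.64). Ttyh3, a chloride channel of the Tweety family, had folds of 3.15, 3.89, 3.37 and 2.62 within 362 nt of its start, while all 25 of its terminal clusters were enriched and reached 5.86.

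Other loci had enriched clusters at the 5′ end too. Of the 1244 internal clusters within 1000 nt of the 5′ end of their locus, 30 were enriched (2.41%, 1.69 to 3.42), against 158 of the 26768 others (0.590%, 0.505 to 0.689). The 30 came from 21 genes. Among clusters with a count, the median was 7 immunoprecipitate reads near a 5′ end and 5 elsewhere. Of clusters with at least 24 reads, 30 of 124 near a 5′ end were enriched (24.2%, 17.5 to 32.4). Elsewhere it was 158 of 709 (22.3%, 19.4 to 25.5), so at that depth the shares were close. The part of depth in the difference over all internal clusters was not tested.

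Across all 83 genes with an enriched internal cluster, 58 had a cluster within 5000 nt of the annotated 3′ end (69.9%, 59.3 to 78.7) and 41 an enriched one (49.4%, 38.9 to 59.9). Of the 3846 genes with internal clusters but no enriched one, 82.6% (81.3 to 83.7) had a terminal cluster and 38.2% (36.7 to 39.8) an enriched one. Among the 58, the internal fold was the higher one in 23 genes and the terminal fold in 35, with medians of the highest fold of 3.73 and 4.46. The internal values were chosen for passing a threshold and the terminal ones were not.

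**Figure D4:**
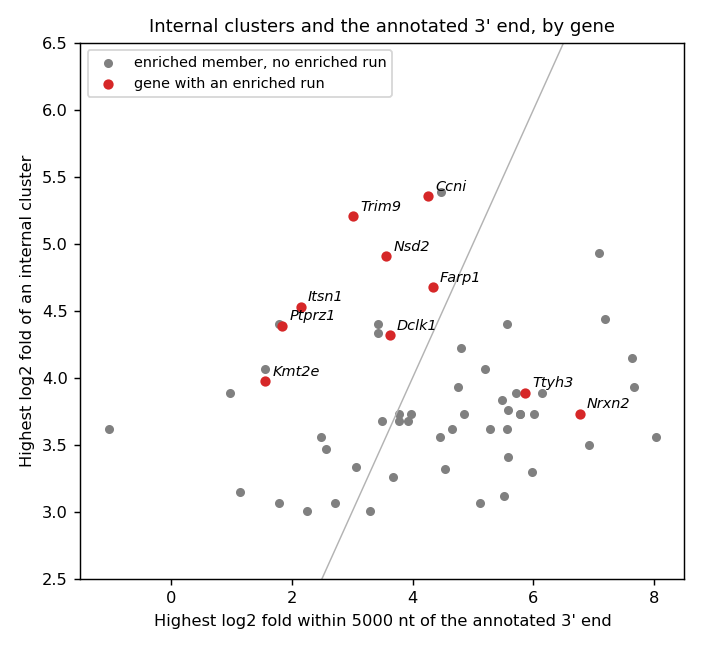
Highest log2 fold of an internal cluster against the highest log2 fold within 5000 nt of the annotated 3′ end, for the 58 genes that have an enriched internal cluster and a terminal cluster; red points are genes with an enriched run, grey points the others, and the line marks equal folds. Trim9, Itsn1, Ptprz1 and Kmt2e lie on the internal side and Nrxn2 and Ttyh3 on the terminal side.

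In 38 of the 83 genes (45.8%) the most downstream enriched cluster assigned to that locus alone was an internal one. Clusters that overlap another locus do not enter this, so the annotated end can still be bound. Ptdss1, named for this, is among the 38, yet had 4 clusters on its strand within 5000 nt of its end, reaching 5.56. Of these, 22 had no cluster on that strand within 5000 nt of the annotated end, and 16 had no assigned cluster within 20000 nt of it. A gene of the 83 without a cluster there is among the 38 by construction, so these 16 are 16 of 83. Of all 3929 genes, 416 (10.6%) had no cluster within 20000 nt. Among the 16 genes were Aldh3a2, Bcl2l1, Exoc2, Fam126a, Fundc1, Gpatch2, Map3k20, Pde4dip, Peli2, Pole4, Rell1, Sh3rf1, Snd1, Ube2w and Zfp451, all named here because of that pattern. Bcl2l1, which encodes the survival factor BCL-XL, had 2 enriched clusters that reached 3.73, ending 22265.5 nt before the annotated end. Snd1, a nuclease of the RNA-induced silencing complex, had 2 at 46419 nt and beyond, reaching 3.56, in a locus of 454826 nt. Exoc2, a subunit of the exocyst, reached 4.62 at 24912 nt or more from its end. In these 3 genes no run of 3 was found at gaps of 100 nt.

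Of the 10 internal clusters with the highest folds, Ccni, Pde4dip, Trim9 and Lamp2 gave 1 each, and 2 came from genes without an enriched run. Adora1, the adenosine A1 receptor, had 1 enriched internal cluster with a fold of 5.39 (interval 2.87 to 10.71) from 85 reads against 1, 1020.5 nt from the 5′ end of the locus, and its annotated end reached 4.47. Rab31, a small GTPase of endosomal transport, had 2 that lay far apart, at 65794.5 and 46306 nt from the end, with folds of 4.93 and 3.98, while its annotated end reached 7.09.

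Crowded clusters were not always enriched, as the longest runs without an enriched cluster show. Lrrfip2 had 7 neighbouring clusters over 440 nt with folds up to 2.78 and 137 reads against 14. It had no cluster within 5000 nt of its annotated end. Dennd5a, an exchange factor for Rab GTPases, had 6 with a median of 1.32, and the splicing factor gene Sfpq had 6 with a median of 0.80. Mmp15, a membrane-type matrix metalloproteinase, had 5 at the very 5′ end of the locus with a median of 1.44, and 14 of its 15 terminal clusters were enriched.

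Genes known for shorter forms that end inside the locus did not share one pattern. Of 32 such genes, 23 had an internal cluster, 288 in all, with a median fold of 0.35 against 0.56 for all internal clusters. Of these, 5 were enriched (1.74%, against 0.671% of all internal clusters), all in Dclk1. Cux1, whose locus also encodes the Golgi protein CASP, reached 3.37 from 21 reads against 1 and missed the p threshold. Pcf11, a termination factor, reached 3.30 from 20 against 1. Ntrk2, the TrkB receptor, had only 2 clusters in the window and reached 2.98 from 16 against 1. Nfix, a transcription factor of neural progenitors, reached 2.68 from 104 against 8 (interval 1.64 to 3.93), 95355.5 nt from its end. Rbbp6, a partner of the cleavage machinery, reached 2.56. Like Cux1, Pcf11 passed the fold threshold and missed that of p. The counting intervals of Cux1 (0.73 to 8.74), Pcf11 (0.65 to 8.67) and Ntrk2 (0.29 to 8.37) lie above 0 and on both sides of the fold threshold. At this depth the counts thus do not decide whether these clusters reach it. The same holds for many clusters called enriched, of which 89 of 188 had 1 input read. The highest of Aldh3a2, at 4.06, has an interval of 1.49 to 9.41.

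The cleavage and polyadenylation machinery was the other list. Of its 26 genes, 16 had internal clusters, 170 in all with a median fold of 0.28. Not 1 of the 170 was enriched. A count of 0 allows up to 1.76%, which includes the 0.671% of all internal clusters. After Pcf11 and Rbbp6, which are in both lists, the highest folds were those of the kinases Cdk12 and Cdk13, both 2.44 from 22 reads against 2, the polyadenylation factor Fip1l1 at 2.30 and the subunit Wdr33 at 1.98.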

How the data were processed

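Per the labels' protocols, lysate was sonicated, RNA was cut with RNase I and UPF1 was immunoprecipitated. UMI-tools, cutadapt, STAR and the build mm10 are listed, per the submitters' processing notes. For the cluster caller and its filters, no name is given in the sources used here. The deposited list, which has no header, gives per cluster a log2 fold over input and a −log10 p, which in the authors' values is 0 for the 32999 clusters with a fold at or below 0 and capped at 400. Both units were read from the values. Library totals are not given. Counts were reconstructed for 90006 of 90350 clusters with a fold above 0 (99.6%), taking the commonest fold as 3 reads against 1 (library ratio 2.03) and a match of the p within 0.05 or 1%. Low counts can have several solutions, and an input of 1 may stand for none.

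Loci came from the RefSeq table of GRCm38.p6. Their strand came from the RefSeq promoter table (3192 of 3929 genes) or, for 737 genes, among them Farp1, Fzd3, Kmt2e, Nrxn2 and Nsd2, from at least 80% of their own clusters (2 or more). Where both existed they matched in 99.7% of loci. Scripts used Python 3.11.15, pandas 2.3.3 and scipy 1.17.1, and were tested on simulated data. Genes named are those of the enriched runs, of the 10 highest folds, of the 5 longest runs without enrichment and up to 6 of each list, beside those said to be named for their pattern, and 1 gene that this rule names is not reported here, though the counts include it. The members and lists were chosen with earlier results of these data known. Alternatives changed the thresholds, input depth, window, locus rule, gap and run size.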

Additional observations from a re-analysis of the deposited data

How the results depend on the processing

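No paired analysis was possible because there is 1 library of each kind. The share of internal clusters enriched, 0.671%, became 1.06% with a log2 fold of at least 2, 0.386% with a −log10 p of at least 5, 0.353% when an input count of at least 2 was required, and 0.541% in a window from 30000 nt. It stayed inside its counting interval when other locus types could overlap (0.668%), in loci shorter than 200000 nt (0.666%) and under 2 settings chosen after seeing the data, strands taken from clusters in all loci (0.677%) and leaving out clusters within 1000 nt of the 5′ end (0.590%). The 176 runs became 76 with gaps of at most 50 nt, 939 with 500 nt and 11 with at least 5 clusters. The 16 enriched runs became 25 with the fold threshold at 2, 26 with gaps of 500 nt, 10 with an input count of at least 2, 9 in the window from 30000 nt and 5 when a run needed at least 5 clusters, a setting chosen after seeing the data that kept Ccni, Lamp2, Ptprz1 and Peli2 among its 5 genes and lost 11. They were 11 with gaps of at most 50 nt. All 16 genes were kept by the fold threshold of 2 and the gap of 500 nt. The input rule lost Aldh3a2, Farp1, Fzd3, Itsn1, Kmt2e and Trim9, and the p threshold of 5 lost Aldh3a2, Farp1, Fzd3 and Kmt2e. Apart from settings that remove clusters or genes by construction, the cause was not tested. Of 18 genes, 9 kept their number of enriched clusters within 1.5 times when an input count of at least 2 was required, and Adora1 had none left. Counts were had for 18131 internal clusters, with a median of 5 immunoprecipitate reads, and for none of the 9875 with a fold at or below 0.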
